A study of Sus scrofa with 18 samples.

Results

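GFP-transfected porcine kidney cells grouped as with or without contact with leukocytes were compared in 8 of the 18 total RNA libraries of the series. The libraries grouped as co-cultured GFP cells were KEC17, KEC19, KEC21 and KEC23. By that grouping they were collected after co-culture with peripheral blood mononuclear cells (PBMC, the lymphocytes and monocytes of blood). The GFP cells alone were KEC1, KEC3, KEC5 and KEC7. Both groups came from one purchased line of primary Sus scrofa kidney endothelial cells that had been frozen at passage 5, and both were transfected with Lipofectamine LTX and used 24 hours later, per the labels' protocols. GFP, a fluorescent protein, was the control for a plasmid of ST8Sia6, an enzyme that joins sialic acids into chains. No source used here gives the species of the PBMC donors, the length of the co-culture or whether PBMC were removed before lysis.

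The grouping goes against part of the sample labels. It follows consecutive blocks of 4 library numbers and the name of a contrast in the authors' deposited table, GFP control over cell-cell interaction of GFP. The treatment label is GFP control for KEC1, KEC3, KEC5 and KEC7 and cell-cell interaction for KEC21 and KEC23, but it is St8i6a plasmid for KEC17 and KEC19. Fitted to the 18 libraries over 5534 well-expressed genes, the fold change of the authors' deposited table put weights between 0.230 and 0.268 on the 4 libraries of GFP cells alone. KEC17, KEC19, KEC21 and KEC23 had weights between -0.267 and -0.234, and no other library passed 0.0200 in size. A difference of block means lay within 0.1 log2 of the deposited value for 95.9% of those genes. The authors' deposited table has 7549 genes with an FDR under 0.05 for this contrast, among them 6228 of the 6568 genes called below, with 0 in the opposite direction. The protocols speak of 4 experiments and of PBMC from 4 individuals, but no label ties a library to either, so the p-values below measure only the spread between these libraries.

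Endothelial cells that meet activated leukocytes are known to switch on NF-kB, a family of transcription factors that drives chemokines, cytokines, adhesion molecules and its own inhibitors. Interferon-gamma from lymphocytes induces IRF1 and, through CIITA, the MHC class II genes that present peptides to helper T cells, while interferon-beta and the alpha family induce antiviral genes in the cell that makes them and in its neighbours. In xenotransplantation, pig endothelium is the first tissue that recipient leukocytes, complement and clotting factors meet.

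Total counts were 14867035 to 21429389 in co-cultured GFP cells and 25077646 to 33301008 in GFP cells alone, so the groups did not overlap in depth. Genes of the mitochondrial chromosome took 13.8% to 19.6% of counts in co-cultured GFP cells and 1.22% to 2.03% in GFP cells alone. Both differences run with the groups and cannot be told apart from co-culture. KEC17 and KEC19, KEC1 and KEC3, and KEC5 and KEC7 were each other's closest libraries, while the closest to KEC21 was KEC25 of another block and the closest to KEC23 was KEC21. Each such pair differed by more than counting noise (chi-square per degree of freedom 12.8 to 29.1), and each library was counted once, although this does not show separate cultures. The endothelial label could be checked only in part. CDH5, VWF and KDR were looked for, and no counted gene carried these symbols, although 3248 genes have no symbol. TEK was not analysed here. Per kilobase of gene model, the endothelial PECAM1 had at most 0.626 CPM over the 8 libraries, ENG 0.406 to 1.18 CPM, EGFL7 0.510 to 4.03 CPM and FLT1 5.22 to 11.6 CPM. Of epithelial genes, EPCAM had 0.121 to 4.28 CPM, the cadherin CDH1 5.26 to 70.5 CPM, the kidney factor PAX2 32.7 to 55.8 CPM and the keratin KRT8 154 to 362 CPM. The mesenchymal collagen COL1A1 had 494 to 1945 CPM. Markers of all 3 kinds were thus read, with COL1A1, KRT8 and PAX2 above FLT1 in level per kilobase and EPCAM below it, and no cell type name is used below. In bulk RNA, fewer cells of a type and less RNA per cell cannot be told apart.

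ST8SIA6 (chr10:43601674-43755140 in susScr11) had 0, 2.83, 0 and 28.2 CPM in KEC17, KEC19, KEC21 and KEC23, against 0, 0.962, 0 and 0.1997 CPM in KEC1, KEC3, KEC5 and KEC7. CPM here and below are counts over the TMM-scaled library total, in the usual CPM unit, with scaling over the 16 libraries of the 4 blocks. The 28.2 CPM of KEC23 rested on 439 counts, and the 0 values allow up to 0.151 and 0.166 CPM in KEC17 and KEC21 and up to 0.0855 and 0.113 CPM in KEC1 and KEC5, at 3 counts and for counting error only. The groups overlapped, and the difference of 1.64 in log2(CPM + 0.5) gave p = 0.429 by a two-sided exact permutation test over 70 regroupings, whose smallest possible p is 0.0286. In the ST8Sia6 blocks, ST8SIA6 had 0, 24, 2 and 1 counts in KEC25, KEC27, KEC29 and KEC31 and 1, 59, 0 and 3 counts in KEC9, KEC11, KEC13 and KEC15. KEC23, KEC19 and KEC3, which the blocks place with GFP, had 439, 61 and 27 counts, so this gene goes against the plasmid names of the blocks. Its counts also alternated within blocks. KEC1, KEC5, KEC9, KEC13, KEC17, KEC21 and KEC25 had 0 or 1 counts, and the library after each in its block had 3 to 439. KEC29 and KEC31, with 2 and 1, were the exception. The permutation test between blocks cannot detect such a difference within them, and none was tested. "GFP cells" and "ST8Sia6 cells" below are therefore names of blocks, and which plasmid each library received was not established from these values. The species of the plasmid's ST8Sia6, and whether its transcript would be counted at the pig gene, is not stated in the sources.

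Of 14008 genes tested, 6568 differed between co-cultured GFP cells and GFP cells alone, which is 46.9% (edgeR quasi-likelihood test, Benjamini-Hochberg adjusted p under 0.05). The calls were 3035 genes higher in co-cultured GFP cells, or 21.7%, and 3533 lower, or 25.2%. The values of the groups did not overlap for 6523 genes, or 46.6%. The median log2 fold change over all genes tested was -0.03, and 3115 calls had a log2 fold change of at least 1 in size. With so many calls in both directions, each gene list below is to be read against these shares. Without KEC21 and KEC23, the only co-cultured GFP libraries whose label says cell-cell interaction, 2538 genes were called, or 17.5%. Without KEC17 and KEC19, whose label says plasmid, 5708 were called, or 38.8%.

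**Figure D1:**
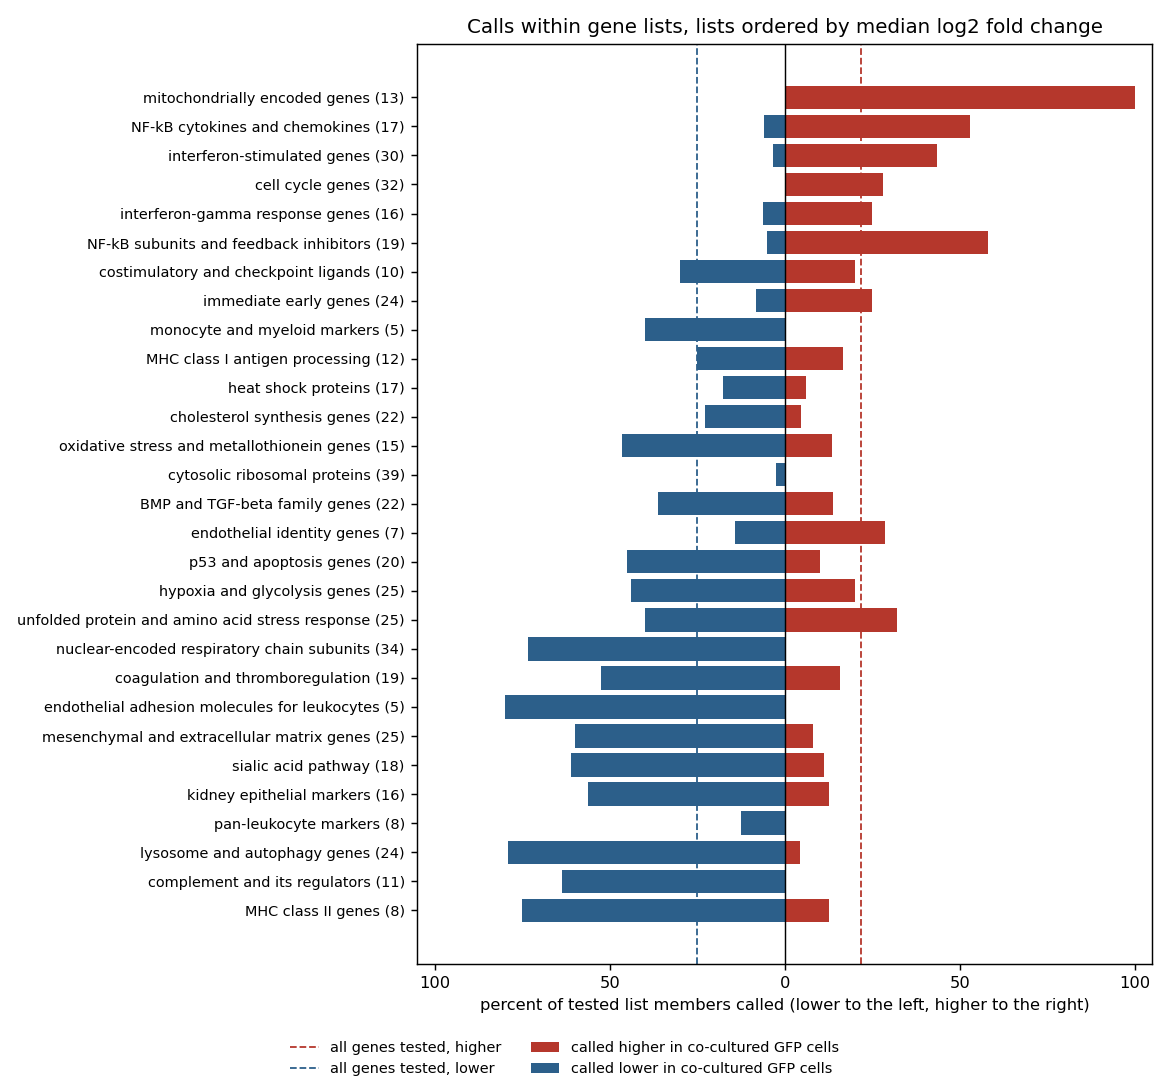
Percent of the tested members of each gene list that were called higher (red, to the right) or lower (blue, to the left) in co-cultured GFP cells than in GFP cells alone, for lists with at least 5 tested members, whose number is in brackets. Dashed lines mark the shares over all genes tested, 21.7% higher and 25.2% lower; mitochondrially encoded genes lie farthest above and MHC class II, complement and lysosomal genes far below.

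Genes of the inflammatory NF-kB program were higher in co-cultured GFP cells. Of 17 tested NF-kB cytokines and chemokines, 9 were higher, 1 was lower and 7 did not pass, with a median log2 fold change of 1.53. CXCL8, the chemokine that draws neutrophils (chr8:69932643-69935861), had 357, 231, 467 and 348 CPM in KEC17, KEC19, KEC21 and KEC23, against 16.4, 14.4, 10.2 and 9.63 CPM in KEC1, KEC3, KEC5 and KEC7. Every co-cultured library lay above every library of GFP cells alone, and the log2 fold change was 4.79 ± 0.28 (SE, adjusted p = 1.0e-05). AMCF-II, a neutrophil chemokine described in pigs and named here after its values were seen, averaged 184 ± 57.7 CPM in co-cultured GFP cells and 13.7 ± 2.63 CPM in GFP cells alone (SD, n = 4 each), a log2 fold change of 3.75 ± 0.26 (adjusted p = 2.2e-05).

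The cytokine interleukin 1 alpha, encoded by IL1A, had 148, 92.1, 192 and 152 CPM in co-cultured GFP cells, against 14.0, 19.8, 15.6 and 9.39 CPM in GFP cells alone. No values overlapped, and its log2 fold change was 3.31 ± 0.28 (adjusted p = 5.2e-05). IL6, which acts on liver and lymphocytes, had 129, 98.5, 179.6 and 147 CPM in co-cultured GFP cells, against 29.5, 28.5, 12.2 and 9.39 CPM in GFP cells alone, or 2.79 ± 0.38 log2 (adjusted p = 0.00047). Its co-cultured values again lay above all others, and among GFP cells alone KEC1 and KEC3 exceeded KEC5 and KEC7. CXCL2, a further neutrophil chemokine, differed by 2.78 ± 0.17 log2, CCL2, the monocyte chemokine, by 2.15 ± 0.26, and CSF1, the macrophage growth factor, by 1.57 ± 0.11 (adjusted p = 1.1e-05, 0.00031 and 2.8e-05). CXCL10, which attracts activated T cells, did not pass: it had 114, 58.7, 197 and 159 CPM in co-cultured GFP cells and 96.7, 82.1, 1.39 and 1.04 CPM in GFP cells alone (1.53 ± 1.10, adjusted p = 0.27). Without KEC1 and KEC3 its log2 fold change was 6.75 with adjusted p = 2.2e-05. In that setting 14 of 18 genes of this list were called higher, against 29.7% of all genes.

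Of 19 NF-kB subunits and feedback inhibitors, 11 were higher and 1 was lower, with a median of 0.40. ZC3H12A, an RNase that degrades cytokine mRNA, averaged 170.5 ± 39.95 CPM in co-cultured GFP cells and 55.8 ± 10.0 CPM in GFP cells alone, and NFKBIA, the inhibitor that holds NF-kB in the cytoplasm, averaged 160.2 ± 34.8 CPM in co-cultured GFP cells and 63.8 ± 16.5 CPM in GFP cells alone (SD, n = 4 each). Their log2 fold changes were 1.62 ± 0.19 and 1.33 ± 0.22 (adjusted p = 0.00026 and 0.0011). IRAK3 and TRAF1, regulators of receptor signalling, rose by 0.64 ± 0.11 and 1.14 ± 0.22 log2 (adjusted p = 0.0012 and 0.0022), and IRAK3 did not pass in a fit of 16 libraries (adjusted p = 0.087). TNFAIP3, the A20 ubiquitin editor, had 166 to 319 CPM in co-cultured GFP cells and 112 to 181 CPM in GFP cells alone. These ranges overlapped, and its rise of 0.74 ± 0.22 (adjusted p = 0.019) lost the call without KEC1 and KEC3 or without KEC21 and KEC23 (adjusted p = 0.062 and 0.25), and also without KEC21 or KEC23 alone (0.063 and 0.0585) and in a fit of 16 libraries (0.198).

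Adhesion molecules through which leukocytes bind were lower or did not pass. Of 5 tested, 0 were higher and 4 were lower, with a median of -0.56, and no counted gene carried the symbol SELE. ICAM1, the ligand of leukocyte integrins, had 162, 147, 163 and 146 CPM in co-cultured GFP cells, against 213, 179.8, 306 and 274 CPM in GFP cells alone. The groups did not overlap and the fall was 0.64 ± 0.16 log2 (adjusted p = 0.0086), but it did not pass without KEC17 and KEC19 or without KEC21 and KEC23 (adjusted p = 0.055 and 0.084). ALCAM, F11R and JAM3, which sit at cell junctions, had log2 fold changes of -0.56, -0.66 and -0.46 (adjusted p = 0.016, 0.028 and 0.020), and the values of ALCAM and F11R overlapped between groups. Each lost the call when KEC21 was left out, JAM3 also without KEC7 or KEC23, and F11R also without KEC5, KEC7 or KEC23. In a fit of 16 libraries, 0 of the 4 passed, with adjusted p = 0.23 for ICAM1, 0.089 for ALCAM, 0.080 for F11R and 0.056 for JAM3. VCAM1, the ligand of integrin VLA-4, had 164 to 235 CPM in co-cultured GFP cells and 159 to 251 CPM in GFP cells alone, a log2 fold change of 0.02 ± 0.18 (adjusted p = 0.92).

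**Figure D2:**
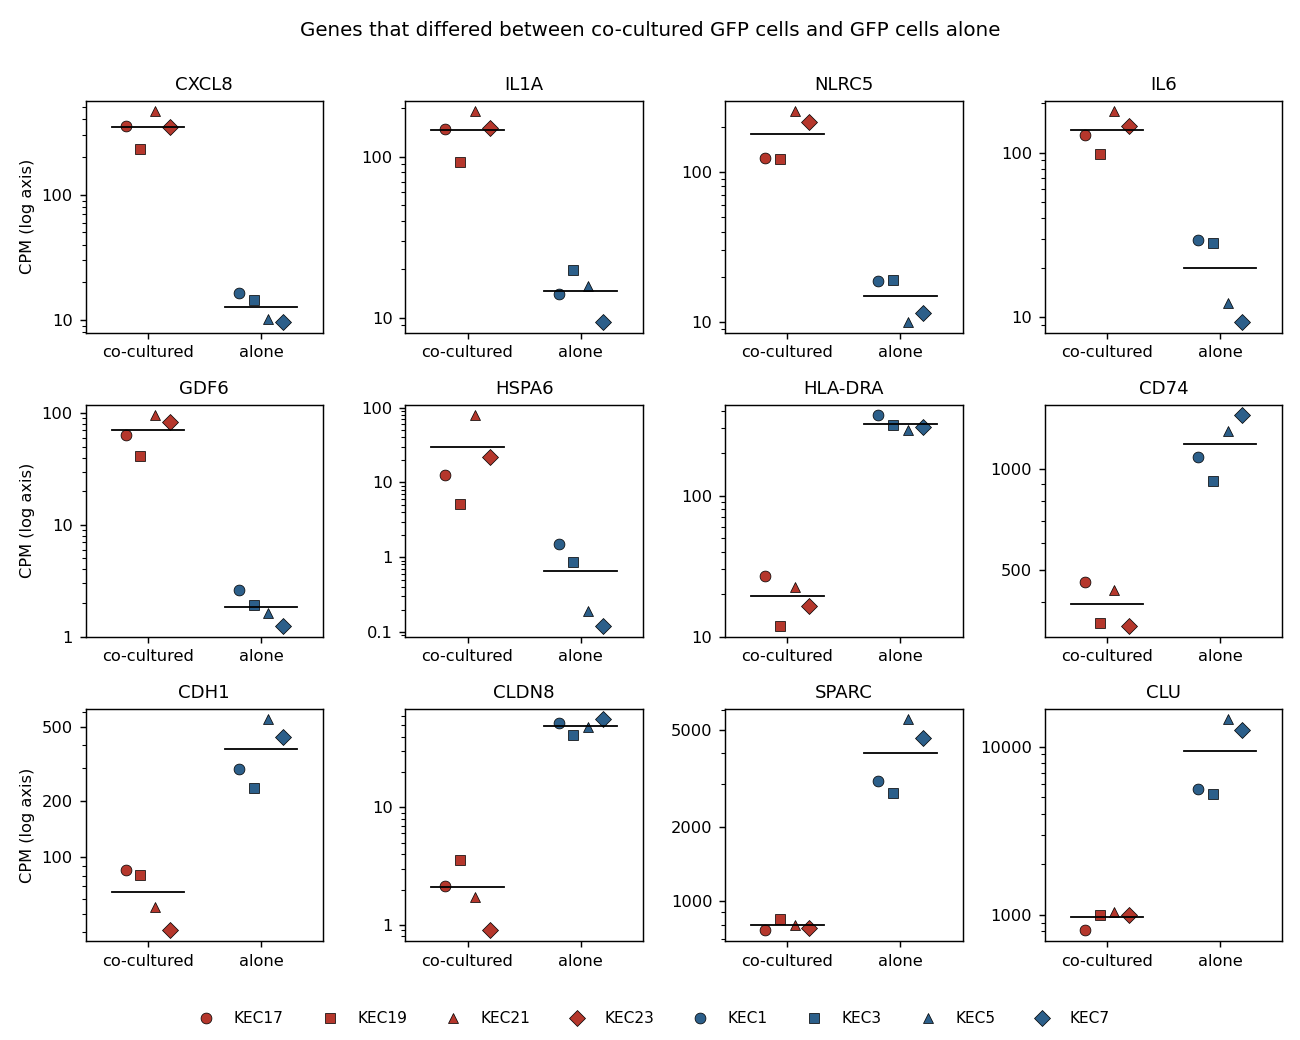
CPM of 12 genes on log axes, by library, with co-cultured GFP cells (red) left of GFP cells alone (blue) and a line at each arithmetic mean of 4 libraries. The 4 co-cultured libraries lie above all others for CXCL8, IL1A, NLRC5, IL6, GDF6 and HSPA6 and below all others for HLA-DRA, CD74, CDH1, CLDN8, SPARC and CLU.

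Type I interferon genes were higher in co-cultured GFP cells. IFNB1, interferon-beta (chr1:201850935-201851495), had 4.63, 3.24, 23.2 and 24.8 CPM in KEC17, KEC19, KEC21 and KEC23, against 1.17, 1.03, 0 and 0 CPM in KEC1, KEC3, KEC5 and KEC7. IFN-ALPHAOMEGA, a porcine interferon of the alpha family whose close copies make its count uncertain, had 2.16, 1.39, 6.07 and 10.7 CPM in co-cultured GFP cells, against 0.314, 0.356, 0 and 0 CPM in GFP cells alone. Neither gene's groups overlapped, and within co-cultured GFP cells KEC21 and KEC23 were the higher libraries for both. The log2 fold changes were 4.58 ± 1.03 and 4.80 ± 0.94 (adjusted p = 0.0052 and 0.0026), and both lost the call without KEC21 and KEC23 (2.78 and 3.30, adjusted p = 0.15 and 0.069).

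Of 30 interferon-stimulated genes tested, 13 were higher, 1 was lower and 16 did not pass, with a median of 0.81. IRF9, part of the complex that carries interferon signals to DNA, averaged 8.33 ± 1.73 CPM in co-cultured GFP cells and 2.64 ± 0.451 CPM in GFP cells alone (1.66 ± 0.23 log2, adjusted p = 0.00047). IFIH1, the RNA sensor MDA5, had 103, 93.1, 133 and 130.2 CPM in co-cultured GFP cells, against 67.1, 52.5, 30.3 and 30.96 CPM in GFP cells alone, and ISG20, an exonuclease, rose by 0.82 ± 0.14 (adjusted p = 0.0028 and 0.0013). Neither gene's groups overlapped, but ISG20 did not pass in a fit of 16 libraries (adjusted p = 0.204). IFI6, an antiviral membrane protein, was the member that fell, with 422, 353, 360.4 and 327 CPM in co-cultured GFP cells and 1009, 831, 915 and 971 CPM in GFP cells alone (-1.34 ± 0.13, adjusted p = 0.00011).

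Of 16 interferon-gamma response genes, 4 were higher and 1 was lower, with a median of 0.53. The share higher was thus near the 21.7% over all genes tested, and the genes named next are the 4 that rose. NLRC5, the activator of MHC class I transcription, had 123, 122, 254 and 214 CPM in co-cultured GFP cells, against 18.7, 18.9, 9.98 and 11.5 CPM in GFP cells alone. The lowest co-cultured library was still far above the highest of the others, and the log2 fold change was 3.60 ± 0.33 (adjusted p = 7.3e-05). SOCS1, which shuts off cytokine receptors, rose by 2.26 ± 0.33 and IRF1 by 1.23 ± 0.27 log2 (adjusted p = 0.00064 and 0.0049). IDO1, which degrades tryptophan, had 1.34 to 8.44 CPM in co-cultured GFP cells, against 0.113 to 1.74 CPM in GFP cells alone, and its rise of 2.43 ± 0.75 (adjusted p = 0.023) was lost when KEC21, KEC23 or KEC7 was left out. The rises of IRF1, IFIH1 and IDO1 did not pass without KEC21 and KEC23 (adjusted p = 0.089, 0.062 and 0.33).

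The libraries of GFP cells alone were not alike in this program. IFIT1, which binds viral RNA, had 975, 755, 1002 and 849 CPM in co-cultured GFP cells, but 844 and 518 CPM in KEC1 and KEC3 and 145 and 179 CPM in KEC5 and KEC7. MX1 had 1297, 1164, 1451 and 1267 CPM, against 1475 and 1065 CPM in KEC1 and KEC3 and 317 and 372 CPM in KEC5 and KEC7. ISG15, a ubiquitin-like protein, had 492 to 654 CPM in co-cultured GFP cells and 744, 484, 85.6 and 139 CPM in KEC1, KEC3, KEC5 and KEC7. KEC1 and KEC3 lay near the co-cultured libraries and KEC5 and KEC7 well below them, and these 3 genes, named after their values were seen, did not pass (adjusted p = 0.089, 0.22 and 0.33). Without KEC1 and KEC3, 29 of the 30 interferon-stimulated genes and 12 of 17 interferon-gamma response genes were called higher, against 29.7% of all genes. Without KEC17 and KEC19 the counts were 6 of 30 and 4 of 17, against 18.3% of all genes, and without KEC21 and KEC23 they were 2 of 30 and 2 of 16, against 7.32%, so in both settings the interferon-stimulated genes were near the share over all genes.

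Some leukocyte genes were highest in the same 2 libraries of GFP cells alone. PTPRC, the pan-leukocyte phosphatase CD45, had 0 CPM in KEC17, KEC19, KEC21 and KEC23, where 3 counts would be 0.139 to 0.192 CPM, and 4.05, 7.98, 0 and 0 CPM in KEC1, KEC3, KEC5 and KEC7. LAPTM5, a lysosomal protein of blood cells named after its values were seen, had at most 0.128 CPM in co-cultured GFP cells and 4.85, 11.7, 0.188 and 0.280 CPM in GFP cells alone. CORO1A, which organises actin in leukocytes, had 1.26, 0.834, 2.76 and 1.99 CPM in co-cultured GFP cells, against 8.55, 15.9, 0.301 and 0.160 CPM in GFP cells alone, and LCP1, which bundles actin, had 8.89 to 13.4 CPM in co-cultured GFP cells, against 28.9, 39.4, 12.1 and 10.6 CPM in GFP cells alone. Without KEC1 and KEC3 the log2 fold change of CORO1A was 2.84 in place of -1.89 (adjusted p = 0.0015 and 0.18). PTPRC and LAPTM5 thus go against the names of the groups, being read in 2 libraries named alone and hardly in those named co-cultured. "Co-cultured" and "alone" are therefore names of blocks too, and which libraries met leukocytes was not established from these values. An MX1 split was also read in ST8Sia6 cells alone, with 50801 and 52136 counts in KEC9 and KEC11 and 8903 and 5765 in KEC13 and KEC15. There PTPRC had 0 and 0 counts in KEC9 and KEC11 and 11 and 15 in KEC13 and KEC15. The part of leukocyte RNA in the interferon values of KEC1 and KEC3 was not tested.

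Over whole lists, the mean log2(CPM + 0.5) of 13 pan-leukocyte markers in the table was 1.34 to 1.45 in co-cultured GFP cells, against 2.82 and 3.37 in KEC1 and KEC3 and 1.303 and 1.24 in KEC5 and KEC7. Their summed levels were 984 to 1066 CPM in co-cultured GFP cells and 938 to 1397 CPM in GFP cells alone. PTPRC, LAPTM5, CORO1A, LCP1 and ITGAL were a small part of each sum. Most of it came from list members not named here, so the sums do not measure leukocyte RNA. Of 8 markers tested, 0 were higher and 1 was lower, the integrin ITGAL (-0.54 ± 0.13, adjusted p = 0.0075, and 0.082 without KEC21 and KEC23). Among T and NK cell markers 4 of 20 were in the table, with summed levels of 9.62 to 14.5 CPM in co-cultured GFP cells and 6.83 to 16.5 CPM in GFP cells alone. Their calls were 0 higher and 1 lower of 3. The 7 monocyte and myeloid markers summed to 29.9 to 32.01 CPM in co-cultured GFP cells and 43.2 to 62.3 CPM in GFP cells alone, with 0 of 5 higher and 2 lower, CD14 (-0.89 ± 0.19, adjusted p = 0.0044) and VCAN (-0.87 ± 0.16, adjusted p = 0.0022). Neither gene passed in the fit of 16 libraries (adjusted p = 0.104 and 0.129). VCAN and CD14 together made up most of each sum, also in libraries where PTPRC had 0 counts. These sums and calls therefore do not measure monocyte RNA. The 4 B cell markers summed to 12.2 to 18.5 CPM in co-cultured GFP cells and 5.79 to 10.9 CPM in GFP cells alone, with 1 of 3 higher. The 1 platelet and erythrocyte marker tested was lower. No counted gene carried the symbol CD3E.

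**Figure D3:**
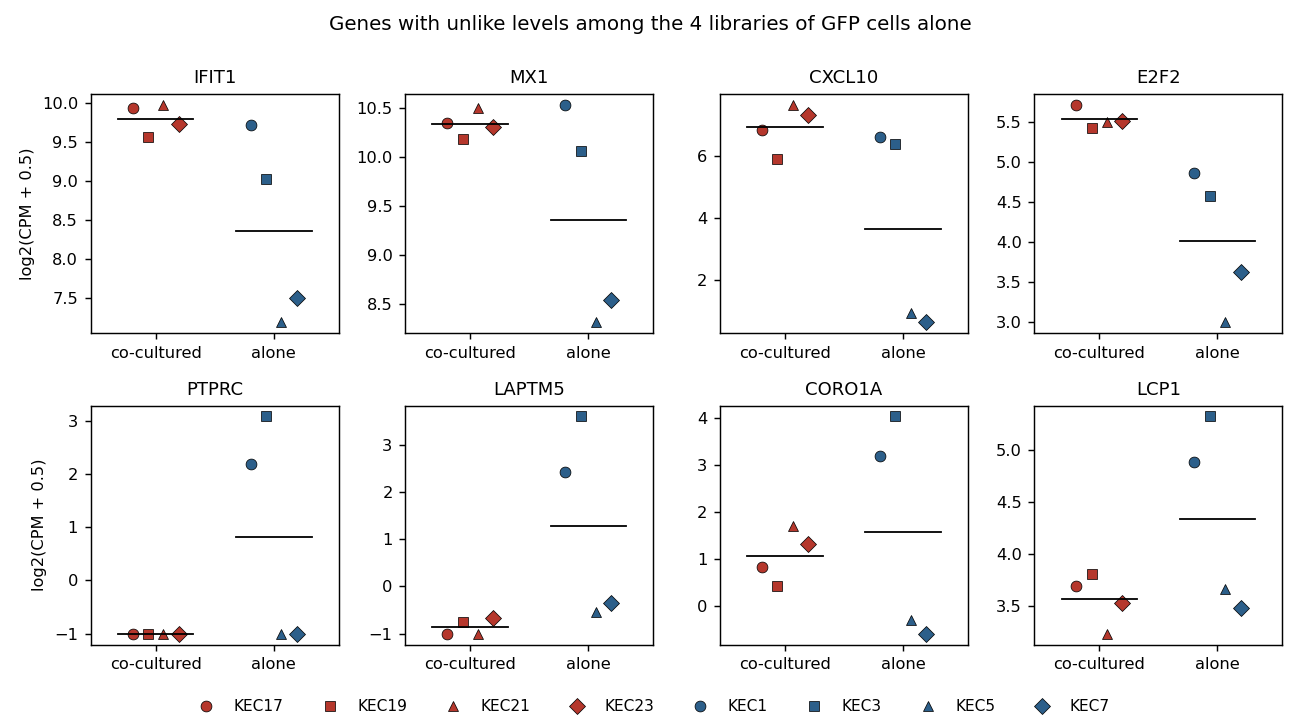
Levels as log2(CPM + 0.5) of 4 interferon-linked or cell cycle genes (top) and 4 leukocyte genes (bottom), with co-cultured GFP cells (red) left of GFP cells alone (blue) and a line at each mean of 4 libraries. KEC1 and KEC3 lie apart from KEC5 and KEC7 in every panel, and PTPRC is at 0 CPM in all but KEC1 and KEC3.

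Genes of MHC class II presentation fell in co-cultured GFP cells while their activator did not move beyond the spread. Of 8 tested, 6 were lower and 1 was higher, with a median of -2.45. HLA-DRA, the table's symbol for the porcine DR alpha chain (chr7:24825053-24835160), had 26.8, 11.9, 22.5 and 16.4 CPM in co-cultured GFP cells, against 371, 318, 292 and 307 CPM in GFP cells alone. The groups were far apart, and the log2 fold change was -4.05 ± 0.25 (adjusted p = 1.1e-05). SLA-DQB1, the DQ beta chain, had 17.9, 11.9, 11.1 and 10.3 CPM in co-cultured GFP cells, against 133, 109, 178 and 193 CPM in GFP cells alone (-3.57 ± 0.23, adjusted p = 1.7e-05).

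SLA-DMB, which loads peptide, differed by -2.61 ± 0.21 log2, SLA-DOA, which restrains loading, by -3.88 ± 0.41, and CD74, the invariant chain, by -1.59 ± 0.18 (adjusted p = 4.8e-05, 0.00015 and 0.00020). None of the 3 overlapped between groups. HLA-DOB, a symbol seen only after the values were known, was the member that rose, with 5.33, 7.69, 8.61 and 11.3 CPM in co-cultured GFP cells, against 1.60, 2.42, 2.15 and 1.80 CPM in GFP cells alone (2.05 ± 0.27, adjusted p = 0.00042). CIITA, the master activator of these genes, had 51.5, 61.5, 56.6 and 52.0 CPM in co-cultured GFP cells and 40.8, 43.6, 56.3 and 60.8 CPM in GFP cells alone (0.15 ± 0.14, adjusted p = 0.42). Pig class II genes are near-identical copies in part, so reads may be shared among them. The counts of 6 lower and 1 higher were the same without KEC1 and KEC3, without KEC17 and KEC19 and without KEC21 and KEC23.

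For MHC class I antigen processing, 2 of 12 were higher and 3 lower, with a median of 0.04, close to the median of all genes. The 3 were chaperones of peptide loading: TAPBP, which bridges class I to the peptide transporter (-1.10 ± 0.16), PDIA3, a disulphide isomerase (-1.12 ± 0.19), and CALR, calreticulin (-0.71 ± 0.15), with adjusted p = 0.00053, 0.0014 and 0.0037. CALR did not pass without KEC21 and KEC23 (adjusted p = 0.060), nor did CD58, given next (0.066). Of 10 costimulatory and checkpoint ligands, 2 were higher and 3 lower, near the shares of 21.7% and 25.2% over all genes tested, with a median of 0.29. CD276 had 108 to 113 CPM in co-cultured GFP cells and 169 to 279 CPM in GFP cells alone (-1.004 ± 0.17, adjusted p = 0.0012), and CD58, the ligand of CD2, fell by 0.49 ± 0.11. The T cell ligand HHLA2 rose by 1.90 ± 0.48 from a low level, at most 1.73 CPM, and did not pass without KEC17 and KEC19 or without KEC21 and KEC23 (adjusted p = 0.060 and 0.058). CD274, the checkpoint ligand PD-L1, had 8.55, 4.68, 7.28 and 4.94 CPM in co-cultured GFP cells, against 2.91, 1.75, 4.78 and 5.07 CPM in GFP cells alone (0.82 ± 0.34, adjusted p = 0.069).

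Complement genes were lower: 7 of 11 fell and 0 rose, with a median of -1.51. SERPING1, the C1 inhibitor, had 28.9, 16.6, 19.3 and 12.8 CPM in co-cultured GFP cells, against 125, 115, 219 and 220.0 CPM in GFP cells alone (-3.12 ± 0.30, adjusted p = 9.3e-05). CLU, clusterin, which blocks the terminal complex, had 812, 1004, 1050.2 and 1008 CPM in co-cultured GFP cells, against 5594, 5270.2, 14511 and 12543 CPM in GFP cells alone (-3.28 ± 0.35, adjusted p = 0.00017). Neither overlapped, and for CLU the libraries KEC5 and KEC7 were well above KEC1 and KEC3. CFI and CFB, a protease and a convertase component, differed by -2.38 ± 0.26 and -1.51 ± 0.27 (adjusted p = 0.00018 and 0.0017), and the central component C3, named after its values were seen, by -1.97 ± 0.38 (adjusted p = 0.0024). The C3 call did not pass without KEC21 and KEC23 (adjusted p = 0.061).

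Of 19 coagulation and thromboregulation genes, 10 were lower and 3 higher, with a median of -0.54. F2R, the thrombin receptor, had 3.07, 4.59, 3.09 and 3.08 CPM in co-cultured GFP cells, against 16.3, 15.5, 17.1 and 15.7 CPM in GFP cells alone. Its groups were narrow and far apart (-2.21 ± 0.18, adjusted p = 4.7e-05). The anticoagulant cofactor PROS1 differed by -2.48 ± 0.34 and the protease inhibitor TFPI2 by -1.45 ± 0.15 (adjusted p = 0.00048 and 0.00015). F3, tissue factor, had 13.5, 16.9, 14.9 and 23.9 CPM in co-cultured GFP cells, against 18.8, 19.7, 30.2 and 24.2 CPM in GFP cells alone (-0.41 ± 0.21, adjusted p = 0.13), and passed without KEC1 and KEC3 (-0.66, adjusted p = 0.014). No counted gene carried the symbol THBD.

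Epithelial genes were mostly lower or did not pass. Of 16 tested kidney epithelial markers, 9 were lower and 2 were higher, with a median of -0.87. CLDN8, a tight junction claudin of the distal nephron, had 2.16, 3.57, 1.71 and 0.898 CPM in co-cultured GFP cells, against 52.4, 41.5, 48.4 and 56.1 CPM in GFP cells alone (-4.53 ± 0.32, adjusted p = 2.8e-05). CDH1, E-cadherin (chr6:18075480-18155986), had 86.0, 80.6, 54.6 and 40.7 CPM in co-cultured GFP cells, against 296, 235, 546 and 442 CPM in GFP cells alone (-2.52 ± 0.31, adjusted p = 0.00030). Both genes separated the groups, and for CDH1 the lowest co-cultured values were in KEC21 and KEC23. EPCAM differed by -3.40 ± 0.56, the kidney cadherin CDH16 by -3.54 ± 0.46 and CLDN4 by -0.97 ± 0.13 (adjusted p = 0.0012, 0.00041 and 0.00051). PAX2 was among the 2 that rose, with 145 to 173 CPM in co-cultured GFP cells, against 101 to 117 CPM in GFP cells alone (0.57 ± 0.11, adjusted p = 0.0024), and KRT8 did not pass (-0.34 ± 0.21, adjusted p = 0.20).

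Among 7 tested endothelial identity genes, 2 were higher and 1 lower, where the shares over all genes tested were 21.7% and 25.2%. The median was -0.27, and 3 of the 7 had a log2 fold change above 0. The VEGF receptor FLT1 had 67.7, 62.9, 73.1 and 77.6 CPM in co-cultured GFP cells, against 36.8, 39.2, 43.6 and 35.0 CPM in GFP cells alone (0.87 ± 0.12, adjusted p = 0.00045). PECAM1 had 3.27, 3.01, 4.97 and 3.91 CPM in co-cultured GFP cells, against 2.25, 2.28, 1.28 and 1.72 CPM in GFP cells alone (1.005 ± 0.28, adjusted p = 0.014), a call lost without KEC21 (adjusted p = 0.053). EGFL7, a secreted vascular factor, fell by 1.94 ± 0.34 (adjusted p = 0.0015). ENG did not pass, but was lower in the fit of 16 libraries (-0.76, adjusted p = 0.047) and without KEC1 and KEC3 (-1.29, adjusted p = 0.00022).

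Of 25 mesenchymal and extracellular matrix genes, 15 were lower and 2 higher, with a median of -0.76. SPARC, a collagen-binding matrix protein, had 759.7, 843, 802 and 778 CPM in co-cultured GFP cells, against 3099.7, 2755, 5497 and 4629.7 CPM in GFP cells alone (-2.32 ± 0.23, adjusted p = 0.00010). Fibronectin, FN1, averaged 5439.6 ± 320.3 CPM in co-cultured GFP cells and 21571 ± 7202 CPM in GFP cells alone, and the integrin-binding TGFBI averaged 91.5 ± 9.11 CPM in co-cultured GFP cells and 481 ± 159.6 CPM in GFP cells alone (SD, n = 4 each; adjusted p = 0.00032 and 7.9e-05). The co-cultured libraries were close to each other for all 3, while KEC5 and KEC7 exceeded KEC1 and KEC3. NID1, a basement membrane linker, was one of the 2 that rose, with 3.27, 9.54, 8.17 and 8.72 CPM in co-cultured GFP cells, against 0.770, 1.18, 1.05 and 1.08 CPM in GFP cells alone (2.87 ± 0.35, adjusted p = 0.00032).

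The largest falls by the naming rule were of genes with differing roles. CYP24A1, which inactivates vitamin D (chr17:55110590-55130363), had 0.604, 0.648, 0.497 and 0.321 CPM in co-cultured GFP cells, against 14.8, 10.3, 73.4 and 81.1 CPM in GFP cells alone (-6.38 ± 0.79, adjusted p = 0.00034). TRPV6, an epithelial calcium channel also induced by vitamin D, had at most 0.221 CPM in co-cultured GFP cells, against 2.34, 1.64, 12.0 and 9.35 CPM in GFP cells alone (-5.24 ± 0.76, adjusted p = 0.00062). Both were lowest in all 4 co-cultured libraries and higher in KEC5 and KEC7 than in KEC1 and KEC3. The synaptic adhesion protein CLSTN3 differed by -6.19 ± 0.63, PI15 by -6.12 ± 0.60, the copper carrier ceruloplasmin, CP, by -5.54 ± 0.71 and the tubulin TUBB4A by -5.02 ± 0.66. EFEMP1, an elastic fibre protein, and GPM6A, a membrane glycoprotein, differed by -4.75 ± 0.40 and -4.63 ± 0.37. The adjusted p-values of these 6 lay between 4.7e-05 and 0.00043.

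The 13 mitochondrially encoded genes were all higher, with a median log2 fold change of 3.52, and all 13 passed without each of the 3 pairs of libraries left out above. ND2, a subunit of respiratory complex I (chrM:5087-6128), had 3057, 2833, 3821 and 2664 CPM in co-cultured GFP cells, against 232, 350.3, 332 and 169 CPM in GFP cells alone (3.52 ± 0.26, adjusted p = 3.3e-05). ATP8, whose reading frame overlaps ATP6 so that reads may be shared, had 296, 264, 297 and 163 CPM in co-cultured GFP cells, against 7.10, 12.2, 18.6 and 9.19 CPM in GFP cells alone (4.45 ± 0.32, adjusted p = 3.0e-05). The lowest co-cultured library for both was KEC23, which was also the shallowest. ND3 and ND6, further complex I subunits, rose by 3.99 ± 0.30 and 3.26 ± 0.22 (adjusted p = 3.3e-05 and 2.1e-05).

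Nuclear genes for the same complexes went the other way: of 34 tested, 25 were lower and 0 higher, with a median of -0.52. The count lower was 25 without KEC1 and KEC3 and 26 without KEC17 and KEC19. Without KEC21 and KEC23 it was 8, with a median of -0.35, where the share lower over all genes was 10.2%. COX5B, a subunit of cytochrome oxidase, had 65.0, 54.4, 54.5 and 42.4 CPM in co-cultured GFP cells, against 107, 87.5, 107 and 121 CPM in GFP cells alone (-0.96 ± 0.15, adjusted p = 0.00077). NDUFA4, NDUFC2 and COX7A2 fell by 0.93 ± 0.12, 1.11 ± 0.19 and 0.82 ± 0.14 (adjusted p = 0.00044, 0.0013 and 0.0016). With the mitochondrially encoded genes taken out of the counts and library totals, 6595 genes were called and the median of all genes was -0.00044. Of 39 cytosolic ribosomal protein genes, 1 was lower, RPS3, and 0 were higher, with a median of -0.16, and its call was lost without KEC21, without KEC23 or without both (adjusted p = 0.056, 0.056 and 0.18).

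**Figure D4:**
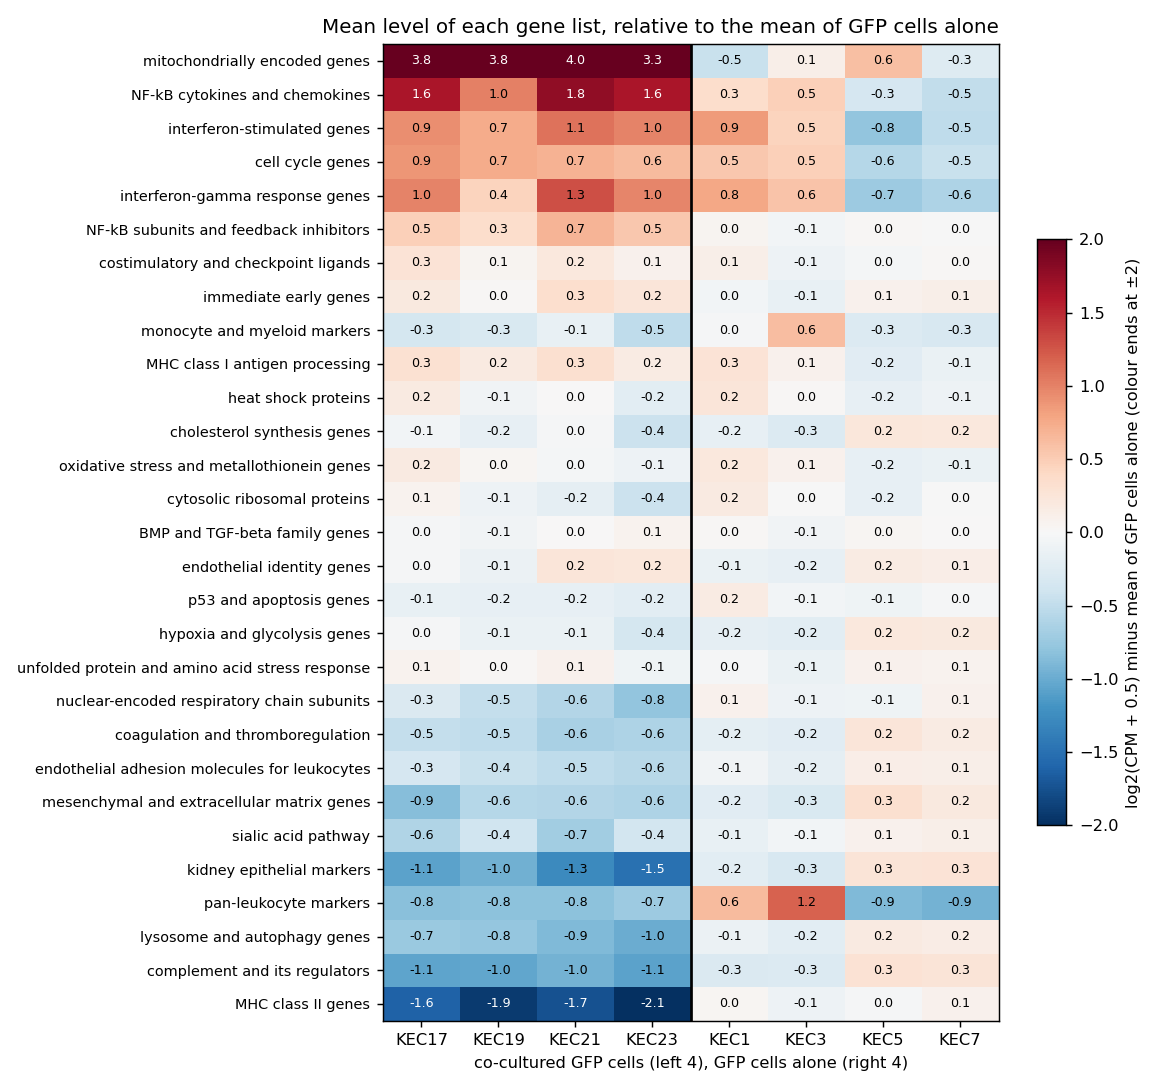
Mean log2(CPM + 0.5) of each gene list in each of the 8 libraries, minus the mean of GFP cells alone, with co-cultured GFP cells in the left 4 columns and lists ordered by median log2 fold change. The mean level of mitochondrially encoded genes was 11.3 to 12.0 in co-cultured libraries and 7.55 to 8.60 in GFP cells alone, while interferon-stimulated, cell cycle and pan-leukocyte rows separate KEC1 and KEC3 from KEC5 and KEC7.

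Stress genes changed in both directions. Of 25 genes of the unfolded protein and amino acid stress response, 8 were higher and 10 lower, with a median of -0.36. The risers included transcription factors and effectors of the integrated stress response. DDIT3, the CHOP transcription factor, had 2.51, 3.43, 4.25 and 4.49 CPM in co-cultured GFP cells, against 0.599, 0.748, 0.678 and 0.759 CPM in GFP cells alone (2.40 ± 0.28, adjusted p = 0.00027). STC2, a secreted stress glycoprotein, averaged 34.5 ± 2.59 CPM in co-cultured GFP cells and 7.47 ± 1.32 CPM in GFP cells alone, and ATF3 averaged 116 ± 16.9 CPM in co-cultured GFP cells and 62.8 ± 8.68 CPM in GFP cells alone (SD, n = 4 each; adjusted p = 2.8e-05 and 0.00088). PPP1R15A, which restores translation, rose by 1.77 ± 0.31 (adjusted p = 0.0015). Among the fallers were chaperones of the endoplasmic reticulum: PDIA4 by 0.99 ± 0.16 and HSPA5, BiP, by 0.93 ± 0.26 (adjusted p = 0.0011 and 0.015). PPP1R15A and HSPA5 were named after their values were seen, and HSPA5 did not pass without KEC17 and KEC19 or without KEC21 and KEC23 (adjusted p = 0.057 and 0.17), nor without KEC7 (0.051).

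HSPA6, a strictly inducible HSP70 with near-identical copies, had 12.4, 5.14, 79.0 and 21.9 CPM in co-cultured GFP cells, against 1.48, 0.855, 0.188 and 0.120 CPM in GFP cells alone (5.40 ± 0.96, adjusted p = 0.0016). It varied most among co-cultured libraries, with KEC21 far above the rest. Of 17 listed heat shock proteins, among which it was not counted, 1 was higher and 3 were lower, with a median of 0.01. ARC, an activity-regulated gene, had 6.84, 4.86, 25.2 and 19.8 CPM in co-cultured GFP cells, against 1.23, 0.784, 0.0753 and 0 CPM in GFP cells alone (4.67 ± 0.87, adjusted p = 0.0021, and 0.065 without KEC21 and KEC23). Of 24 immediate early genes, 6 were higher, near the 21.7% over all genes tested, and 2 lower, with a median of 0.11. Among those called were KLF4 (1.70 ± 0.22), NR4A3 (1.65 ± 0.37) and EGR2 (-1.68 ± 0.36), with adjusted p = 0.00042, 0.0053 and 0.0042. NR4A3 and EGR2 did not pass without KEC21 and KEC23 (adjusted p = 0.089 and 0.0805). HMOX1, haem oxygenase, had 67.4, 52.1, 82.5 and 73.1 CPM in co-cultured GFP cells, against 24.1, 27.3, 6.63 and 8.59 CPM in GFP cells alone (2.04 ± 0.42, adjusted p = 0.0035, and 0.063 without KEC21 and KEC23). Its list of 15 oxidative stress and metallothionein genes had 2 higher and 7 lower, catalase, CAT, among them (-0.83 ± 0.17, adjusted p = 0.0030).

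Most lysosomal genes fell: of 24 lysosome and autophagy genes, 19 were lower and 1 was higher, with a median of -1.15. The protease CTSB had 292, 288, 296 and 276 CPM in co-cultured GFP cells, against 807, 743, 1070.3 and 998 CPM in GFP cells alone (-1.64 ± 0.14, adjusted p = 6.1e-05). The membrane proteins LAMP1 and LAMP2 fell by 1.13 ± 0.14 and 1.32 ± 0.17 (adjusted p = 0.00033 and 0.00043). No co-cultured library overlapped with the others for any of these 3 genes.

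Of 20 p53 and apoptosis genes, 9 were lower and 2 higher. CDKN1A, the p21 cell cycle inhibitor, fell by 1.19 ± 0.20, the death receptor FAS by 0.97 ± 0.14 and the survival factor BCL2L1 by 0.81 ± 0.13 (adjusted p = 0.0013, 0.00062 and 0.0010). Cell cycle genes had 9 of 32 higher and 0 lower, with a median of 0.61. E2F2, an S phase transcription factor, had 51.8, 42.6, 44.7 and 45.3 CPM in co-cultured GFP cells, against 28.7, 23.4, 7.50 and 11.9 CPM in GFP cells alone (1.36 ± 0.35, adjusted p = 0.010). E2F1, CDC25A and the replication licensing factor CDT1 rose by 1.06 ± 0.21, 0.92 ± 0.20 and 1.38 ± 0.31 (adjusted p = 0.0028, 0.0046 and 0.0052). KEC1 and KEC3 lay between the co-cultured libraries and KEC5 and KEC7 for all 4, and without KEC1 and KEC3 the list had 28 of 32 higher, against 29.7% of all genes. Without KEC17 and KEC19 it had 3, against 18.3%, and without KEC21 and KEC23 it had 0, against 7.32%. All 4 named genes lost the call in the last setting (adjusted p = 0.057 to 0.089), and E2F2 also without KEC17 and KEC19 (0.064).

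Of 25 hypoxia and glycolysis genes, 5 were higher and 11 lower, with the vasodilator ADM up by 1.303 ± 0.27 and the collagen hydroxylase P4HA1 down by 1.51 ± 0.21 (adjusted p = 0.0033 and 0.00053). Of 22 cholesterol synthesis genes, 5 were lower and 1 was higher, with a median of -0.15. Without KEC1 and KEC3, 11 cholesterol synthesis genes were lower, where the share over all genes was 30.4%.

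Growth factors of the BMP family included one of the largest rises. GDF6 (chr4:40473013-40489032), a BMP-type ligand known for skeletal joints, had 63.6, 41.2, 95.8 and 83.5 CPM in co-cultured GFP cells, against 2.59, 1.92, 1.62 and 1.24 CPM in GFP cells alone. The groups were far apart, and the log2 fold change was 5.25 ± 0.33 (adjusted p = 1.2e-05). BMP4 rose by 0.99 ± 0.16, and the ligand TGFB1 and the receptor ACVR1 fell by 1.04 ± 0.12 and 0.77 ± 0.12 (adjusted p = 0.0010, 0.00021 and 0.00087). Over the whole BMP and TGF-beta list of 22, 3 were higher and 8 lower, with a median of -0.21.

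The largest rise by the naming rule was CHST4 (chr6:14535863-14549890), a sulphotransferase that in lymph node vessels sulphates the glycans bound by L-selectin. It had 15.04, 5.70, 12.5 and 8.72 CPM in co-cultured GFP cells, against 0.1996, 0.107, 0 and 0 CPM in GFP cells alone (6.86 ± 0.63, adjusted p = 7.9e-05), so every co-cultured library was above every other. Of 18 sialic acid pathway genes, 11 were lower and 2 higher, with a median of -0.78. ST3GAL5, which makes the ganglioside GM3, had 1.66, 2.45, 0.662 and 1.54 CPM in co-cultured GFP cells, against 9.69, 10.2, 31.6 and 33.6 CPM in GFP cells alone (-3.72 ± 0.52, adjusted p = 0.00053). The sialyltransferases ST6GAL1 and ST6GALNAC4 and the sialidase NEU1 fell by 1.08 ± 0.14, 1.29 ± 0.23 and 0.93 ± 0.15 (adjusted p = 0.00039, 0.0015 and 0.00096). None of these 4 overlapped between groups.

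The contact difference was also set against that of the blocks named for the ST8Sia6 plasmid, KEC25, KEC27, KEC29 and KEC31 (co-cultured ST8Sia6 cells) and KEC9, KEC11, KEC13 and KEC15 (ST8Sia6 cells alone), which share no library with the GFP blocks. These blocks too depart from the labels, which give KEC9 as GFP control and KEC31 as wild type, and ST8SIA6 itself goes against the plasmid names, so what follows compares blocks of libraries and is not shown to be an effect of the plasmid. The difference in GFP cells departed from that in ST8Sia6 cells for 436 of 14690 genes, or 2.97% (edgeR quasi-likelihood test of the interaction), with 139 above and 297 below. This count was 76 to 1229 when 1 of the 16 libraries was left out, 3852 without KEC1 and KEC3 and 78 without KEC29 and KEC31, whose mitochondrial share was 3.32% and 2.29%, against 24.3% and 25.4% in KEC25 and KEC27. Of the 6568 genes called in GFP cells, 1573 or 23.9% were also called in ST8Sia6 cells, which is 56.4% of the 2791 called there. Over all genes tested the shares called were 20% in ST8Sia6 cells and 46.9% in GFP cells. Of the genes called in both, 1541 had the same sign.

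Of the 6 genes with the lowest interaction p that the naming rule takes, AEBP1, a collagen-binding matrix protein, had the lowest, with 22.8, 28.4, 29.1 and 30.0 CPM in co-cultured GFP cells, against 115, 110.4, 144 and 129.9 CPM in GFP cells alone. Its log2 fold change was -2.17 ± 0.14 in GFP cells and 0.32 ± 0.12 in ST8Sia6 cells, a difference of -2.48 ± 0.18 (adjusted p = 3.6e-06). Log2 fold changes of the proteoglycan BGN were -1.03 ± 0.15 in GFP cells and 0.81 ± 0.12 in ST8Sia6 cells, of the gelatinase MMP2 -2.17 ± 0.30 and 0.58 ± 0.23, and of the metalloprotease ADAM19 -0.66 ± 0.12 and 1.42 ± 0.25. THBS2, a thrombospondin, did not pass in GFP cells (-0.24 ± 0.20, adjusted p = 0.35) and rose in ST8Sia6 cells (2.15 ± 0.20). RMI2, a DNA repair factor, rose by 0.75 ± 0.18 in GFP cells and fell by 0.94 ± 0.16 in ST8Sia6 cells, and its rise did not pass without KEC17 and KEC19 or without KEC21 and KEC23 (adjusted p = 0.054 and 0.062). The interaction of these 6 genes had adjusted p between 3.6e-06 and 0.0081, and all 6 passed with each of the 16 libraries left out and without KEC29 and KEC31.

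F2R and ADM also passed the interaction with each of the 16 libraries left out, at -1.75 ± 0.29 and 2.05 ± 0.38 (adjusted p = 0.0089 and 0.0155), although ADM did not pass without KEC29 and KEC31 (adjusted p = 0.070). IL6, whose fold change was 2.79 in GFP cells and -0.65 ± 0.62 in ST8Sia6 cells, passed in 6 of those 16 settings, and SPARC, at -2.32 and -0.05 ± 0.37, passed in 9. For HLA-DRA, CDH1, CLDN8, GDF6, DDIT3 and ND2 the interaction did not pass, with ST8Sia6 fold changes of -3.29 ± 0.57, -1.93 ± 0.36, -3.30 ± 0.53, 4.45 ± 0.62, 2.32 ± 0.43 and 3.53 ± 0.80. Each of these had the sign of its value in GFP cells, and a missed threshold does not show that both pairs of blocks gave the same difference.

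**Figure D5:**
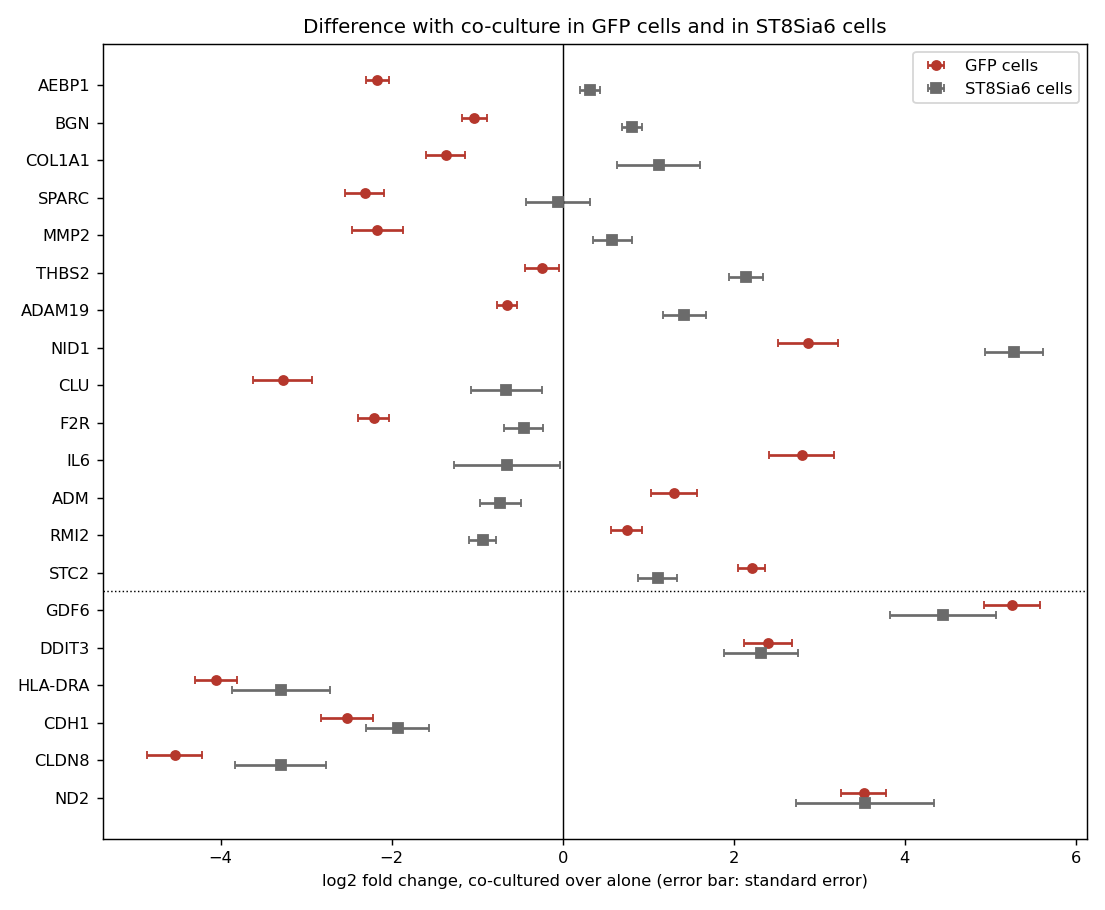
Log2 fold change of co-cultured over alone in GFP cells (red circles) and in ST8Sia6 cells (grey squares) for 20 genes, with standard errors. The interaction passed for the genes above the dotted line, where estimates of opposite sign include AEBP1, BGN, THBS2, MMP2, ADAM19, IL6, ADM and RMI2, and did not pass for those below it.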

How the data were processed

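Total RNA was sequenced from 18 libraries, per the labels' protocols. The submitters' processing notes list edgeR 3.40.2, Subread 2.0.3 with its featureCounts program, STAR 2.7.10a, FastQC 0.11.5 and the build susScr11, without roles. The annotation used, and how strand and multiply mapped reads were handled, are not given in the sources read. The table holds raw whole-number counts for 15240 genes, as deposited by the authors, 3248 without a symbol. Its log2 values are log2-transformed CPM of each library and log2 fold changes, both computed by the authors before deposit, per the file headers. The fold changes and the p-value and FDR columns come from the authors' own edgeR comparison, per the file headers.

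Here, low genes were left out by filterByExpr, TMM set the scaling, and the test was the robust quasi-likelihood test of edgeR 4.0.16 (R 4.3.3), two-sided, adjusted by Benjamini-Hochberg over all genes tested, with a threshold of 0.05. The fit held the 8 libraries of the comparison, and the interaction 16. Errors of log2 fold changes, called standard errors, are the size of the fold change over the square root of the quasi-likelihood F statistic. They are therefore approximate. The procedure was tested on simulated data with independent libraries and few changed genes. Far more genes were called in these data, so the simulation does not give the error rate here. DESeq2 1.42.0, limma 3.58.1, other filters and scalings and libraries left out were alternatives. Intervals of depth cover counting error only.

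The groups and the 32 gene lists were chosen with earlier results of these data known, so neither is independent support. Named genes were ST8SIA6, up to 8 largest rises and falls among calls averaging 5 CPM or more in the higher group without overlap, up to 4 members with the lowest p of each list with 5 or more tested, a list of known marker genes, and up to 6 genes with the lowest interaction p. A few further genes were chosen after their values were seen, as said where they occur, and so were KRT8, PAX2 and COL1A1. Porcine MHC genes, interferon-alpha genes and HSPA6 have near-identical copies that may share reads. Some genes the rule takes are not reported here.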

Additional observations from a re-analysis of the deposited data

Results flagged for a closer look

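In 10 of 286 groups of 4 libraries, 1 library stood apart from the other 3 by the gap rule for small groups, and chance marks about 1 in 20 groups. In co-cultured GFP cells these were ST8SIA6 at 28.2 CPM in KEC23, PI15 at 1.57 CPM, EFEMP1 at 0.926 CPM and F2R at 4.59 CPM in KEC19, CD276 at 108 CPM and ND6 at 1458 CPM in KEC21, ND3 at 409.8 CPM in KEC23 and BGN at 36.4 CPM in KEC17. In GFP cells alone they were ITGAL at 15.8 CPM in KEC7 and ALCAM at 24.6 CPM in KEC3.

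For 21 named genes the co-culture difference in GFP cells departed from that in ST8Sia6 cells by the interaction test, given here as the log2 difference between the pairs of blocks, whose plasmid names the ST8SIA6 counts go against. It was above 0 for CHST4 (4.61), IL6 (3.46), ADM (2.05), RMI2 (1.70) and STC2 (1.11). It was below 0 for CP (-4.18), CLSTN3 (-3.43), EFEMP1 (-3.08), MMP2 (-2.75), CLU (-2.62), COL1A1 (-2.49) and AEBP1 (-2.48). It was also below 0 for NID1 (-2.39), THBS2 (-2.38), F3 (-2.34), SPARC (-2.26), EGR2 (-2.19), ADAM19 (-2.07), ENG (-1.86), BGN (-1.84) and F2R (-1.75). NID1 rose in both pairs of blocks, by 2.87 log2 in GFP cells and 5.27 log2 in ST8Sia6 cells. Many of these calls were fragile. Of 16 fits with 1 library left out, STC2 passed in 4 and CLSTN3, CP, ENG, CLU, EGR2 and COL1A1 in 5 each. EFEMP1 passed in 6, CHST4 in 8, F3 in 11 and NID1 in 14. Without KEC29 and KEC31 the interaction test of CLSTN3, CP and EFEMP1 gave adjusted p = 0.27, 0.25 and 0.24.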

How the results depend on the processing

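No paired analysis was possible because no label ties a library to an experiment or a PBMC donor. The 6568 calls were within 1.5 times that number under RLE size factors, no filter, a filter of 5 CPM, DESeq2, limma-voom, a fit of 16 libraries and without mitochondrially encoded genes, and were 5140 to 6824 (2285 to 3341 higher, 2819 to 3491 lower) with 1 library left out. They were 2538 (1061 higher, 1477 lower) without KEC21 and KEC23 and 3115 (1677 higher, 1438 lower) with a log2 fold change of at least 1 required. The count of the interaction was 1455 by DESeq2, 76 to 1229 with 1 library left out, 3852 without KEC1 and KEC3 and, in a setting chosen after seeing the data, 78 without KEC29 and KEC31. The cause was not tested. Of 138 named genes, 30 lost the call without KEC21 and KEC23, 6 without KEC17 and KEC19 and 9 in the fit of 16 libraries. Without KEC1 and KEC3 the sign turned for LCP1 (0.012), CORO1A (2.84) and CIITA (-0.079), and VCAM1 turned without KEC17 and KEC19 (-0.078) and lay between -0.085 and 0.19 with 1 library left out. List counts without pairs of libraries were added after seeing the data. The ST8SIA6 difference was 0.40 to 2.35 with 1 library left out. Depth of 14867035 counts in KEC23 limits genes near 3 counts.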
